A study of Mus musculus with 6 samples.

Results

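The mitochondrial aminoacyl-tRNA synthetases are enzymes, encoded in the nucleus and imported into mitochondria, that load each amino acid onto its mitochondrial tRNA. Mitochondrial ribosomes depend on these loaded tRNAs to make the respiratory chain proteins that mitochondrial DNA encodes. In pancreatic beta cells, mitochondrial respiration supplies the ATP that couples glucose to insulin release. The family falls into class I and class II by the fold of the catalytic domain, and most mitochondrial enzymes have a separate cytosolic counterpart encoded by another gene. The genes described were the rows of the table whose symbol equalled 1 of 10 listed names, and all 10 were found among 18437 genes. They are Lars2 for leucine, Iars2 for isoleucine, Vars2 for valine, Rars2 for arginine, Yars2 for tyrosine, Wars2 for tryptophan, Tars2 for threonine, Fars2 for phenylalanine, Nars2 for asparagine and Sars2 for serine. Lars2 was chosen by its normalized counts in these libraries, which were higher in knockout, so its difference between genotypes is given as a description with no test. The other 9 were listed as its relatives.

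RNA sequencing was done on islets isolated from male mice aged 30 weeks. There were 3 libraries from Sec16b-/- animals (knockout) and 3 from Sec16b+/+ animals (wild type). Sec16b encodes a protein of the sites where cargo leaves the endoplasmic reticulum. How the allele was made, and whether the replicates are different mice, is not in the labels. The p-values may therefore rest on technical spread.

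The deposited values, called normalized counts here, stood for 22071895 to 24887766 reads per knockout library and 22566274 to 26806787 reads per wild type library. Sec16b itself ran from 433 to 750 in knockout libraries and from 773 to 1786 in wild type libraries, lower in the knockout but not absent. Its log2 fold change was −1.22 (SE 0.35, limma adjusted p = 0.993), so the targeted gene was itself not called. Beta cell markers, 11 of 11 in the table, took 9.46% to 15.0% of the summed values in knockout and 11.6% to 15.3% in wild type libraries. Acinar markers of the exocrine pancreas, 18 of 18 in the table, took 15.5%, 7.23% and 0.682% in knockout replicates 1, 2 and 3, against 5.08%, 1.03% and 3.13% in wild type replicates 1, 2 and 3. In bulk tissue, fewer cells of a type and less RNA per cell cannot be told apart.

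Lars2 was the member with the large difference. Its normalized count was 3330, 2746 and 2032 in knockout replicates 1, 2 and 3, against 1508, 1462 and 1649 in wild type replicates 1, 2 and 3. Every knockout library lay above every wild type library. The lowest knockout library, replicate 3, lay closer to the wild type libraries than to the other knockout libraries. The means were 2703 ± 650 in knockout and 1539 ± 97.2 in wild type (SD, n = 3 each), a ratio of 1.76 and a log2 fold change of 0.78 on the log2(value + 1) scale. Of 4800 tested genes with a mean value of at least 1000, 41 had a higher log2 fold change. This position describes the contrast by which Lars2 was chosen. Across all 16042 genes tested, the 3 knockout values lay above the 3 wild type values in 3.85% and below them in 5.22%.

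The knockout libraries also differed more among themselves in Lars2 than the wild type libraries did. The coefficient of variation of Lars2 was 24.0% over the 3 knockout libraries and 6.32% over the 3 wild type libraries. Over the 4800 genes with a mean value of at least 1000, the median coefficient was 9.87% in knockout and 9.29% in wild type. Lars2 rested on 1504 to 2931 reads per library, for which counting error alone is at most 2.58%. Such an error covers counting only. Fars2 likewise had a coefficient of 16.2% in knockout and 3.93% in wild type, whereas Nars2 had 6.46% in knockout and 18.7% in wild type.

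**Figure D1:**
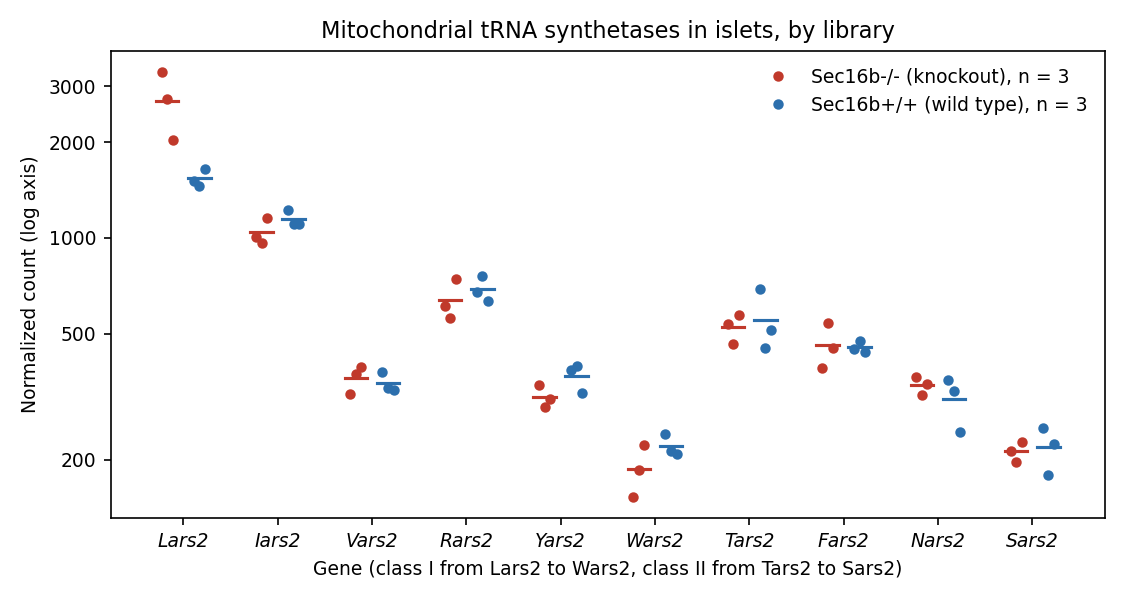
Normalized count (log axis) of the 10 synthetase genes in each library, with knockout libraries in red to the left of wild type libraries in blue and a line at each mean (n = 3 per genotype). Lars2 is the gene whose groups do not overlap, at 2032 to 3330 in knockout and 1462 to 1649 in wild type libraries, while the groups of the other 9 genes overlap.

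Lars2 loads leucine onto the mitochondrial leucine tRNAs, and variants of the human gene cause Perrault syndrome, with hearing loss and ovarian failure. Its closest relatives by amino acid and structure are Iars2 and Vars2, the other synthetases for branched-chain amino acids. Iars2 had normalized counts of 1010, 967 and 1154 in knockout replicates 1, 2 and 3, against 1228, 1104 and 1105 in wild type replicates 1, 2 and 3. Knockout replicate 3 stood within the wild type range and the other knockout libraries stood below it. The log2 fold change of Iars2 was −0.14, with a 95% interval from −0.39 to 0.11 (limma, adjusted p = 0.993). Dropping knockout replicate 3 gave −0.21, dropping knockout replicate 2 gave −0.084 and dropping wild type replicate 1 gave −0.086. Vars2 had 322.7, 372.8 and 391.7 in knockout replicates 1, 2 and 3, against 377.9, 337.0 and 331.5 in wild type replicates 1, 2 and 3. The groups overlapped, with the highest and the lowest value both in knockout libraries. Its log2 fold change was 0.053, with a 95% interval from −0.27 to 0.37 (limma, adjusted p = 0.993), and it was −0.019 when values were scaled to the total count.

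The promoters of Lars2 and Vars2 are printed because these branched-chain members differed in a motif that many nuclear genes for mitochondrial proteins carry, the core of the Nrf1 site, GCATGCG. The sequences are the 250 bases before the RefSeq start on GRCm38.p6, 5′ to 3′ on the gene's strand, with capitals for the Nrf1 core and for the GC box GGGCGG on either strand.
Lars2, chr9:123366677-123366926, + strand: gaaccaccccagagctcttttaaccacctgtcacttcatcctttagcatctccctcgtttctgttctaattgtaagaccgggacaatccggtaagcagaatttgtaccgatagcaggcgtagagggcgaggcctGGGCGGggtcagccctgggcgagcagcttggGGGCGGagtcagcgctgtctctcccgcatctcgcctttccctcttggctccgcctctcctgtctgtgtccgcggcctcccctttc
Vars2, chr17:35667593-35667842, − strand: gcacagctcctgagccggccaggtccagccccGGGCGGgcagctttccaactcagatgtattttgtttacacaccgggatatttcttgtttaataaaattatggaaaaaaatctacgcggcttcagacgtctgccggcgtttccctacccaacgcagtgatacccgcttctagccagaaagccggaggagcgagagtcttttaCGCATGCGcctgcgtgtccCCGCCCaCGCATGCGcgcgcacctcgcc
Vars2 held 2 Nrf1 core sites and 2 GC boxes, and Lars2 held 0 and 2.

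RefSeq promoters, each with 300 bases around the start, were matched for 10 of 10 members. A gene was counted for a motif when any promoter of its symbol held it. The shares over all promoters count each promoter, so these units differ. The Nrf1 core stood in 5 members, Vars2, Nars2, Wars2, Yars2 and Rars2, and in 3.58% of all 32851 promoters. Its absence was not particular to Lars2, since Iars2, Sars2, Tars2 and Fars2 had no match either. GC boxes stood in 8 members and 35.7% of all promoters. The element TGATGNAAN, bound by Atf4 with Cebp factors in genes of the amino acid response, stood in 0 members and 3.95% of all promoters. It stood in 4 of the 15 matched genes of the cytosolic synthetase list, namely Aars, Iars, Tars and Yars. That list also held Aimp2 and Eef1e1, which are not synthetases. Both strands were searched, and the Nrf1 core overlaps its own reverse complement. A match is a description of the letters and does not show binding. The 5 members with the Nrf1 core did not share a direction, with log2 fold changes from −0.25 for Wars2 to 0.16 for Nars2.

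The other class I members, for arginine, tyrosine and tryptophan, had lower means in knockout but overlapping groups. Rars2 had normalized counts of 611, 560 and 743 in knockout replicates 1, 2 and 3, against 674, 758 and 634 in wild type replicates 1, 2 and 3. Its log2 fold change was −0.12 (95% interval −0.45 to 0.22, limma adjusted p = 0.993). Yars2 had 345, 293 and 311 in knockout replicates 1, 2 and 3, against 385, 394 and 325 in wild type replicates 1, 2 and 3. Only knockout replicate 1 of Yars2 reached the wild type range. Its log2 fold change was −0.22 (95% interval −0.55 to 0.12, limma adjusted p = 0.993). Wars2 had 153, 185 and 223 in knockout replicates 1, 2 and 3, against 242, 214 and 209 in wild type replicates 1, 2 and 3. The order of the knockout libraries in Wars2 was the reverse of their order in Lars2. The log2 fold change of Wars2 was −0.25 (95% interval −0.70 to 0.19, limma adjusted p = 0.993). Leaving out knockout replicate 1 gave −0.12, and leaving out knockout replicate 3 gave −0.39. For Rars2 the value was −0.23 when knockout replicate 3 was dropped, −0.028 when knockout replicate 2 was dropped and −0.045 when wild type replicate 2 was dropped.

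The class II members, for threonine, phenylalanine, asparagine and serine, had overlapping groups and log2 fold changes from −0.056 to 0.16. Tars2 ran from 465 to 570 in knockout libraries and from 451 to 691 in wild type libraries, with a log2 fold change of −0.056 (95% interval −0.49 to 0.37). Fars2 ran from 390 to 539 in knockout and from 438 to 473 in wild type libraries, with a log2 fold change of 0.010 (95% interval −0.34 to 0.36). The wild type range of Fars2 lay inside its knockout range. Nars2 had 364, 320 and 348 in knockout replicates 1, 2 and 3, against 357, 329 and 245 in wild type replicates 1, 2 and 3. Wild type replicate 3 stood below the other libraries in Nars2, and the log2 fold change was 0.16 (95% interval −0.25 to 0.58). Sars2 ran from 198 to 227 in knockout and from 179 to 253 in wild type libraries, with a log2 fold change of −0.029 (95% interval −0.46 to 0.40). Limma's adjusted p lay between 0.993 and 0.998 for these 4 genes. The signs for Tars2, Fars2 and Sars2 each turned when single libraries were left out, and that of Fars2 also under total-count and quantile scaling. Nars2 was at 0.0040 without wild type replicate 3 and at 0.27 without wild type replicate 1.

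Of the 9 relatives, 0 passed limma's test and 0 were without overlap between the genotypes. Over all 16042 genes limma also called 0, or 0%, with 494 genes at an unadjusted p under 0.05, and 9.08% of genes had no overlap in either direction. By sign, 3 relatives were higher and 6 lower in knockout, against 49.4% higher over all genes tested. Under total-count scaling 1 relative was higher. Without wild type replicate 1, 5 of the 9 were higher. Their median log2 fold change was −0.056, against a median of −0.0030 over all genes tested. The median of the relatives was 0.0029 without wild type replicate 1 and −0.16 without wild type replicate 2. A p that misses the threshold does not show that the genotypes were alike, and the interval of Wars2 reaches −0.70.

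**Figure D2:**
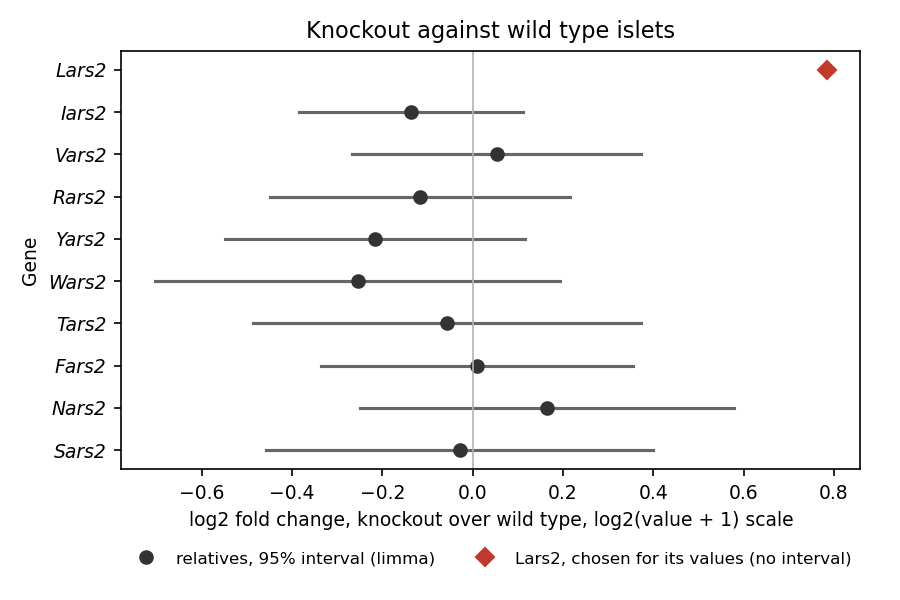
Log2 fold change of knockout over wild type on the log2(value + 1) scale for each synthetase gene, with 95% limma intervals for the 9 relatives and a point only for Lars2, which was chosen for its values. The interval of every relative includes 0, from −0.25 for Wars2 to 0.16 for Nars2, while Lars2 stands at 0.78, and the points of Fars2 and Vars2 move below 0 under total-count scaling and that of Fars2 under quantile scaling.

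Set against its relatives in the same library, Lars2 kept its difference. The mean log2 value of the relatives was 8.58, 8.58 and 8.74 in knockout replicates 1, 2 and 3, against 8.83, 8.67 and 8.60 in wild type replicates 1, 2 and 3. The log2 value of Lars2 exceeded that mean by 3.12, 2.84 and 2.25 in knockout replicates 1, 2 and 3, against 1.73, 1.85 and 2.09 in wild type replicates 1, 2 and 3. The genotypes did not overlap in this within-library difference, but knockout replicate 3 and wild type replicate 3 lay 2.25 against 2.09. The group means of the difference were 2.74 ± 0.45 in knockout and 1.89 ± 0.18 in wild type (SD, n = 3 each), or 0.85 apart. The gap was 0.66 to 1.09 with single libraries left out. Because it contains the Lars2 contrast, it is given with no test. Over the 6 libraries, the correlation of log2 values with Lars2 ran from −0.88 for Wars2 to 0.32 for Nars2. These values hold the genotype split by which Lars2 was chosen and are a description only.

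Levels were compared between members per kilobase of the longest protein-coding transcript in GENCODE M21. Lars2 stood at 694 ± 167 normalized counts per kilobase in knockout and 395 ± 24.97 in wild type libraries (SD, n = 3 each). Rars2 followed at 341 ± 50.4 in knockout and 369 ± 34.0 in wild type libraries. In wild type libraries the ranges of Lars2 and Rars2 overlapped, so these levels were not separated beyond their spread. In knockout libraries the lowest Lars2 level per kilobase was 522 and the highest Rars2 level was 398. Next in wild type came Fars2 at 213 ± 8.38, Iars2 at 209 ± 13.0, Tars2 at 171 ± 38.5, Yars2 at 131 ± 13.3 and Sars2 at 117 ± 19.9. Each of these overlapped its neighbour, but Sars2 did not overlap Nars2 below it. Nars2 at 82.2 ± 15.4 and Vars2 at 78.8 ± 5.73 overlapped each other, and Wars2 at 50.3 ± 3.96 was lowest and apart from Vars2. Per kilobase of the coding part of the same longest transcript Lars2 stayed first, but the places of 8 members moved, and Tars2 came second. The longest transcript need not hold the longest coding sequence, and for Tars2 its coding part was 1.27 of 3.23 kilobases. The places by coding length therefore rest on that choice of transcript. Of the summed level per kilobase of all 10 genes, Lars2 made up 39.6%, 35.2% and 26.3% in knockout replicates 1, 2 and 3, against 20.3%, 20.9% and 24.1% in wild type replicates 1, 2 and 3.

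The Lars2 transcript shares sequence with other entries of the table, so reads of Lars2 could be counted to them and their reads to Lars2. The search for shared sequence covered GENCODE M21 transcripts only. Runs of 31 or more identical bases were found with 2 other genes, Gm15564 and AA474408, and lay in the 3′ untranslated region of the Lars2 transcript. That transcript has 3894 bases and its coding part ends at base 2905. The stretch shared with AA474408 covered 116 bases between bases 3172 and 3313, and that with Gm15564 covered 52 bases between bases 3278 and 3329. Gm15564, an antisense RNA in GENCODE M21, was the 1 entry in the table of 11 listed as linked to ribosomal RNA. It had 41.7, 48.7 and 34.9 in knockout replicates 1, 2 and 3, against 9.02, 21.3 and 29.9 in wild type replicates 1, 2 and 3. The knockout values of Gm15564 all lay above its wild type values, as in 3.85% of all genes tested. Its log2 fold change was 1.15 (SE 0.47, limma adjusted p = 0.993). These values are low, and the 9.02 of wild type replicate 1 lay below the minimum value set for the fit. AA474408 had 20.9, 15.0 and 24.9 in knockout replicates 1, 2 and 3, against 16.04, 15.5 and 19.3 in wild type replicates 1, 2 and 3, and its groups overlapped. The mean difference between genotypes was 1163 normalized counts for Lars2, 21.7 for Gm15564 and 3.30 for AA474408. RNAs absent from the table have no value to set beside these, and any part of their reads in the Lars2 values was not tested. Where along Lars2 the reads fell cannot be read from a value per gene, and the part of the shared stretches in the Lars2 difference was not tested.

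The acinar share moved with Lars2 among the knockout libraries. By gene, 18 of 18 acinar markers were higher in knockout, with a median log2 fold change of 0.83. Over all genes tested, 49.4% were higher. Knockout replicates 1, 2 and 3 had summed acinar marker values of 4199143, 1685456 and 150026 and Lars2 values of 3330, 2746 and 2032, in the same order. In wild type replicates 1, 2 and 3 the acinar sums were 1149501, 231281 and 738080, and Lars2 was 1508, 1462 and 1649. Wild type replicate 2 was lowest in both, but replicate 1 had the highest acinar sum and replicate 3 the highest Lars2 value. Knockout replicate 3 had the lowest acinar sum of the 6 libraries and a Lars2 value above every wild type library, which is 1 library only. With the acinar level, taken as the mean log2 value of the acinar markers, as a covariate, the log2 fold change of Lars2 was 0.68, against 0.78 without it. The part of acinar cells in the Lars2 values was not tested. Lymphocyte markers, 6 of 9 in the table, summed to 7122 to 143805 in knockout and 237 to 21710 in wild type libraries. All 6 were higher in knockout, with a median log2 fold change of 2.63. Cd3e, Cd3d and Ms4a1 were not analysed here. Knockout replicate 1 had the highest value of both lymphocyte markers and Lars2, and the part of these cells in the Lars2 values was not tested. Markers of the other islet endocrine cells were also summed. Delta and PP cell markers, 4 of 4 in the table, summed to 44285, 65055 and 47527 in knockout replicates 1, 2 and 3, against 38335, 43323 and 42268 in wild type replicates 1, 2 and 3, with no overlap. By gene, 3 of these 4 were higher in knockout. Alpha cell markers, 6 of 6 in the table and all 6 higher, summed to 240867 to 664758 in knockout and 172073 to 366582 in wild type libraries, so their sums overlapped. The part of these endocrine cells in the Lars2 values was not tested either.

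**Figure D3:**
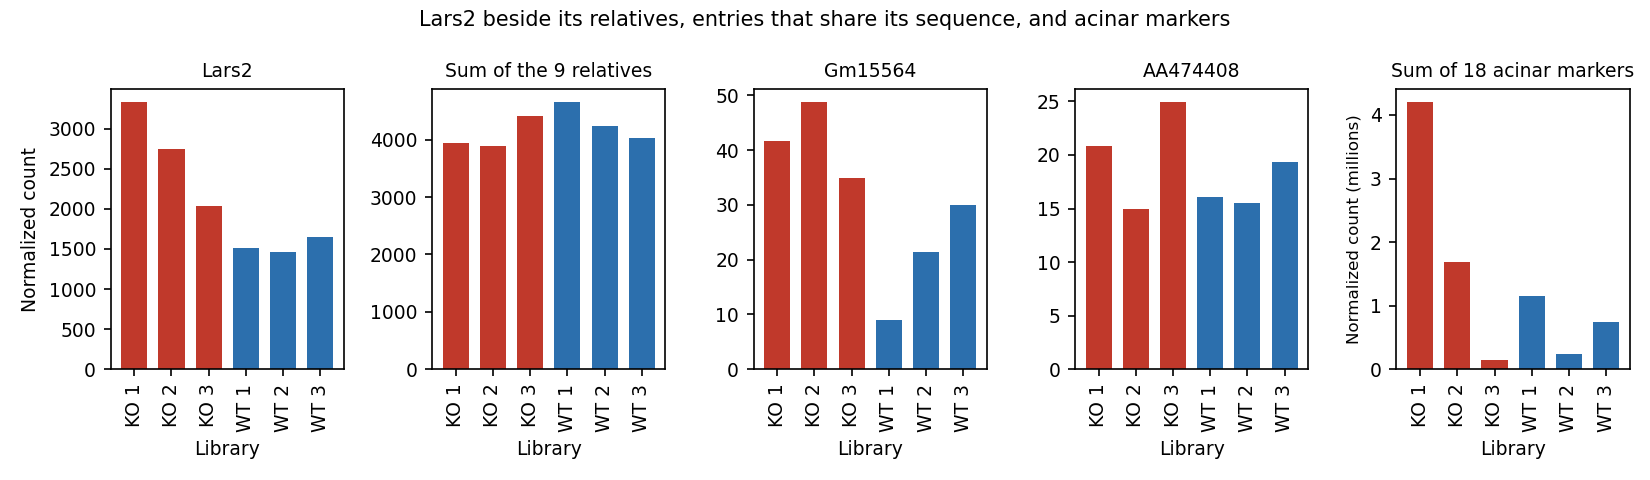
Normalized count of Lars2, the sum of its 9 relatives, Gm15564, AA474408 and the sum of 18 acinar markers in each library, with knockout (KO) libraries in red and wild type (WT) libraries in blue. Lars2 and Gm15564 are higher in every knockout library than in every wild type library, as are 3.85% of all genes tested. The relatives' sum, AA474408 and the acinar sum overlap between genotypes.

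Other members share bases with neighbours, and the strand setting of the counting is not given in the sources used here. Exons of Iars2 overlap those of Rab3gap2 on the other strand by 2034 bases in GENCODE M21. Rab3gap2, a regulator of the secretory GTPase Rab3, ran from 5357 to 5486 in knockout and from 5182 to 6496 in wild type libraries. Fars2 shares 115 exon bases with Lyrm4 and 501 with Nrn1, both on the other strand. No annotated gene overlapped Lars2. Runs of 31 bases in the longest protein-coding transcripts of Wars2 and Tars2 recurred in 3228 and 232 other genes. The values of these members are therefore uncertain where the counting divided such reads.

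The rest of the mitochondrial charging machinery was tested in the same fit. The list held 12 genes, 7 further mitochondrial synthetases, Gars and Kars, which serve both compartments, and the glutamine amidotransferase subunits Qrsl1, Gatb and Gatc. Of these, 3 were higher and 9 lower in knockout, against 49.4% higher over all genes tested. In this list 0 passed the test, and the median log2 fold change was −0.068. That median was −0.0027 without wild type replicate 1, −0.12 without wild type replicate 3 and −0.14 under total-count scaling. Cars2, for cysteine, was the gene of smallest p, at 388 ± 13.9 in knockout and 334 ± 35.1 in wild type libraries (SD, n = 3 each), with a log2 fold change of 0.22 (SE 0.13, limma adjusted p = 0.993). It was the sole gene of the list with no overlap between genotypes, against 9.08% of all genes tested. For Mars2, the methionine enzyme, the log2 fold change was −0.22 (SE 0.18). For Gars, the glycine enzyme, it was −0.14 (SE 0.12).

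The list of cytosolic synthetases, which also held Aimp2 and Eef1e1, genes that are not synthetases, had no called gene either. Of 22 genes, 4 were higher and 18 lower, against 49.4% higher over all genes tested. In this list 0 passed the test, and the median was −0.069, or 0.021 without wild type replicate 1. Lars, the cytosolic leucine enzyme, had normalized counts of 3104, 2500 and 2811 in knockout replicates 1, 2 and 3, against 3642, 2848 and 3013 in wild type replicates 1, 2 and 3. Its log2 fold change was −0.17 (95% interval −0.48 to 0.13, limma adjusted p = 0.993). Among the other branched-chain enzymes, the log2 fold change was −0.13 for Iars (SE 0.19) and −0.0028 for Vars (SE 0.21). Tarsl2, a threonine synthetase-like gene, had the smallest p of the list, at 536 ± 61.5 in knockout and 653 ± 37.6 in wild type libraries (SD, n = 3 each). Its groups did not overlap, as in 9.08% of all genes tested. The log2 fold change of Tarsl2 was −0.29 (SE 0.12, limma adjusted p = 0.993). The remaining counterparts, Sars, Nars, Tars, Farsa, Farsb, Wars, Yars and Rars, had log2 fold changes from −0.18 for Rars to 0.056 for Wars.

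Among 23 genes that process or modify mitochondrial tRNAs, 17 were higher and 6 lower, against 49.4% higher over all genes tested. In this list 0 passed the test, and the median log2 fold change was 0.064, or −0.0075 under total-count scaling. Trit1, which adds an isopentenyl group beside the anticodon of certain tRNAs, had 353, 297 and 307 in knockout replicates 1, 2 and 3, against 269, 242 and 237 in wild type replicates 1, 2 and 3. Its groups did not overlap, and the log2 fold change was 0.35 (SE 0.14, limma adjusted p = 0.993). Trmt5, a tRNA methyltransferase, and Lactb2, a mitochondrial ribonuclease, had −0.28 (SE 0.17) and −0.11 (SE 0.082). Lactb2 had 1290, 1370 and 1379 in knockout replicates 1, 2 and 3, against 1405, 1440 and 1526 in wild type replicates 1, 2 and 3, so every knockout value was the lower. In this list 1 gene lay above without overlap, Trit1, and 2 lay below, Lactb2 and Mto1, a tRNA wobble uridine modifier that was picked out after its values were seen. Over all genes tested, 3.85% lay above and 5.22% below without overlap.

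Of 16 mitochondrial translation factors, 5 were higher and 11 lower, with 0 passing and a median of −0.057. Over all genes tested, 49.4% were higher. The elongation factor gene Tufm stood at 944 ± 122 in knockout and 1042 ± 37.1 in wild type libraries (SD, n = 3 each), with a log2 fold change of −0.15 (SE 0.12, limma adjusted p = 0.993). Taco1, a translational activator of a cytochrome oxidase subunit, had −0.22 (SE 0.19) and Mtrfr, a rescue factor for stalled ribosomes, −0.21 (SE 0.20). Of 21 genes of mitochondrial transcription and RNA handling, 8 were higher and 13 lower, with 0 passing and a median of −0.035, or 0.0053 at the highest with 1 library left out. Slirp and Lrpprc, whose products bind each other and stabilise mitochondrial mRNAs, had 0.33 (SE 0.21) and −0.16 (SE 0.13). Fastkd2, an RNA-binding protein of the mitochondrial large ribosomal subunit's assembly, had −0.16 (SE 0.12). Its groups did not overlap, as in 9.08% of all genes tested. The highest log2 fold change among all genes of these 5 lists was 0.35, below the 0.78 of Lars2, which was chosen for its knockout values.

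**Figure D4:**
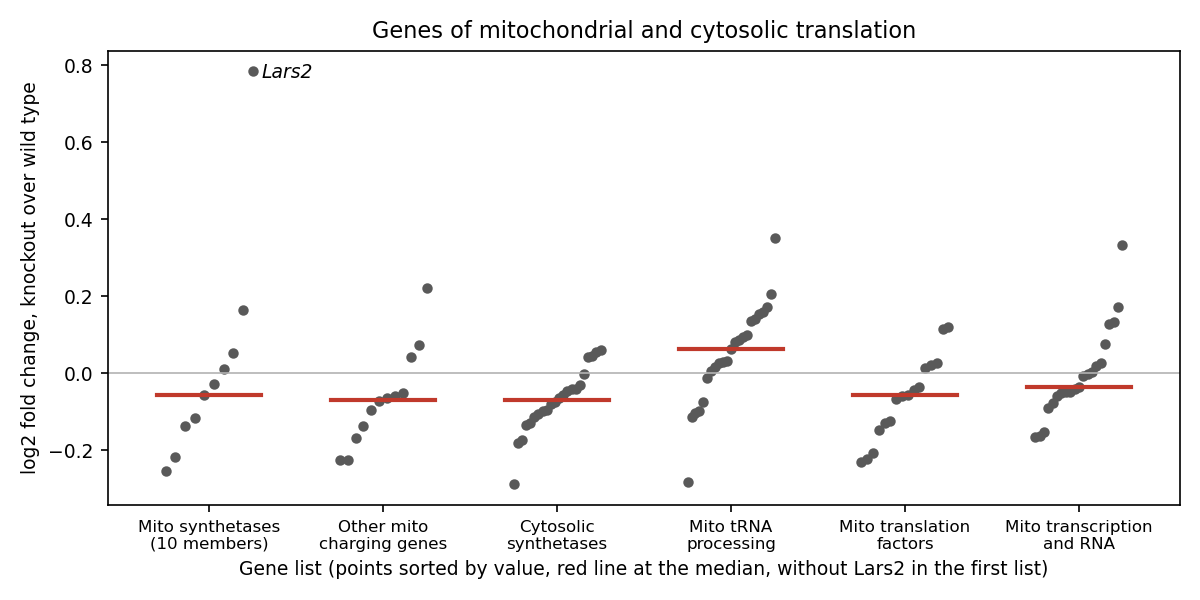
Log2 fold change of knockout over wild type for each gene of 6 lists, as points sorted by value with a red line at the median (for the 10 synthetases, the median of the 9 relatives, −0.056). Lars2, which was chosen for its knockout values, stands at 0.78 above every other point. The list medians lie between −0.069 and 0.064, the tRNA processing median moving to −0.0075 under total-count scaling.

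The genes most like Lars2 over the 6 libraries, by Pearson's r of log2(value + 1), were Pbld2 (0.994), Rps3a2 (0.993), Tenm1 (0.993), Flvcr2 (0.990) and Gm26586 (0.989). Pbld2 had 196, 156 and 117 in knockout replicates 1, 2 and 3, against 87.2, 76.5 and 97.6 in wild type replicates 1, 2 and 3, the same order as Lars2 in each genotype. Flvcr2, a haem and choline transporter gene, had 27.0, 22.5 and 13.0 in knockout, against 10.02, 8.71 and 11.4 in wild type libraries. After the mean of each genotype was subtracted, the genes most like Lars2 were Aldh7a1, Smap1, Gm8242, Epb41 and Mcfd2, with r from 0.9943 to 0.9985. Aldh7a1, a lysine-degrading dehydrogenase, had 1029, 820 and 608 in knockout replicates 1, 2 and 3, against 633, 614 and 687 in wild type replicates 1, 2 and 3, so its groups overlapped. These genes were picked as the highest of 16042 over 6 libraries, so r is a description only.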

How the data were processed

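RNA from frozen islets was sequenced in 6 libraries, 3 per genotype, with groups and replicate numbers from the labels. The aligner was HISAT2, per the submitters' processing notes. The sources used here name no counting tool, annotation, build or strand setting. The signal that the authors deposited behaves as reads per gene over a library-wide factor: each value was a whole multiple of a step between 0.879 and 1.23, to within 0.01 reads. No gene was at 0, so a gene silent in any library was not analysed here.

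The fit took the 16042 genes that reached a value of 10 in 3 or more libraries, among them all 10 members. The contrast of knockout minus wild type was fitted with limma 3.58.1 (R 4.3.3) on log2(value + 1) with a mean-variance trend, two-sided, with Benjamini-Hochberg adjustment over all genes at 0.05. The fit was tested on simulated data with large known changes, which says nothing of small ones. The members and lists were chosen with earlier results of these data known. From each of 5 pathway lists the 3 genes of smallest p were named, with the members' cytosolic counterparts, Sec16b, the 1 listed ribosomal RNA-linked entry in the table (Gm15564) and the 5 genes most like Lars2 by each measure. AA474408, Rab3gap2, Lyrm4 and Nrn1 were named after the shared bases were seen. Alternatives covered pseudocount, filter, scaling, trend, a replicate block, the acinar level and leaving out each library.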

Additional observations from a re-analysis of the deposited data

How the results depend on the processing

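Limma called 0 genes and 0 relatives under each of the 16 alternatives, replicate block included. Lars2 had the highest log2 fold change of the 10 members in each, but it was chosen by this contrast, so its place is a description only. The lowest log2 fold change of Lars2 was 0.62, with knockout replicate 1 left out, and its highest 0.98, with knockout replicate 3 left out. The unadjusted count at p under 0.05 ran from 335 to 1127. Under total-count scaling the median of all genes was −0.074, Vars2 was at −0.019, Fars2 at −0.061, the tRNA processing median at −0.0075 and the transcription and RNA median at −0.11, and under quantile scaling Fars2 was at −0.0058. With single libraries left out, Vars2 ran from −0.0055 to 0.13, Sars2 from −0.17 to 0.081, Tars2 from −0.19 to 0.12 and Fars2 from −0.11 to 0.12. The tRNA processing median ran from 0.018 to 0.13 and the translation factor median from −0.15 to −0.031. The median of the relatives ran from −0.16 to 0.0029, that of the cytosolic synthetases from −0.14 to 0.021 and that of transcription and RNA handling from −0.049 to 0.0053. The causes of these moves were not tested. What the replicate numbers share is not known from the labels. The deviations of same-numbered libraries correlated at 0.474, −0.061 and 0.415 over 11508 genes. Those of libraries with different numbers correlated at −0.467 to 0.229. Replicates 1 and 3 thus deviated with their same-numbered library, and replicate 2 did not. Whether the numbers pair the libraries is not settled by these values, so the main fit held no pairing and the replicate block was an alternative. With the replicate block 0 genes were called and 864 had an unadjusted limma p under 0.05, against 494 in the main fit. Count models on reads recovered from the steps were not run, although each value was a whole multiple of its step to within 0.01 reads. What such models would call is not known. With 125 to 241 reads, Wars2 was the member with the fewest, and counting error reached 8.94%. The order of levels by coding length was an alternative chosen after seeing the data.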
